A study of Mus musculus with 11 samples.

Results

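Interferon-stimulated genes are the genes that a cell transcribes after an interferon binds its receptor. A set of 38 such mouse genes, fixed by symbol, was followed through whole livers of the alcohol-associated liver disease study described here. Of these, 32 are best known as targets of type I interferons and 6 are GTPases best known as targets of interferon-gamma. Each of the 38 symbols matched exactly 1 of the 55414 genes in the count table, and all 38 were among the 17038 genes with enough counts to be tested.

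The livers came from 11 male mice, all carrying Clec4f-DTR, which places the diphtheria toxin (DT) receptor under the control of the Kupffer cell gene Clec4f, so that toxin is aimed at Kupffer cells, the resident macrophages of the liver. The mice were 8 weeks old when the diets began and stayed on them for 16 weeks. There were 3 mice on chow, 4 mice on a western diet with alcohol that received serial saline (the saline group), and 4 mice on the same diet that received serial DT (the DT group). The chow mice also carried the receptor, and their labels name no injections, so the saline and chow groups differ in diet, alcohol and injections together. A group on the diet without injections and a group given DT on chow were not analysed here.

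Type I interferons act through the receptor IFNAR and the kinases JAK1 and TYK2, which lead to the assembly of ISGF3, a factor that holds STAT2 and IRF9 and binds interferon-stimulated response elements in promoters. Interferon-gamma acts through IFNGR and the kinases JAK1 and JAK2, which lead to the binding of gamma-activated sites in promoters, and to the factor IRF1. Many of the products block steps of viral replication, and others, such as the GBP and IRG GTPases, attack the vacuoles of intracellular pathogens. In liver, hepatocytes, Kupffer cells and endothelial cells are all able to respond to interferon.

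Library totals ran from 43995217 to 58089531 counts. At these totals 3 counts, the limit that a count of 0 allows, corresponded to 0.0397 to 0.0772 CPM (counts scaled to library size, here with trimmed-mean factors), and this limit covers counting error only. Clec4f was measured at 47.4, 50.3 and 37.1 CPM in the chow livers, at 46.6, 49.1, 43.1 and 44.9 CPM in the saline livers, and at 9.06, 15.2, 7.51 and 6.17 CPM in the DT livers. All 4 DT livers were thus below every other liver (log2 fold change against saline -2.28, SE 0.24, adjusted p = 0.00125). The summed level of 7 hepatocyte markers, Alb among them, was 62793 to 116928 CPM, and the sample labels name whole liver tissue. DT replicate 2 stood apart from the other DT livers. In a principal component analysis of the 500 genes with the largest variance, the first component held 75.9% of that variance. On it, this liver lay at -14.2, within the range of the saline livers (-31.0 to -10.3), whereas the other DT livers lay at 62.5 to 71.8. Results of the DT group are therefore also given without it.

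The promoters of the set were read from RefSeq (GRCm38.p6), in the 250 bases before each gene's start. The files themselves were made on GRCm39, so these positions belong to the RefSeq table alone. The table held 28 of the 38 genes. A core of the interferon-stimulated response element, searched on both strands as GAAA, then any 2 bases, then GAAA, was present in 16 of the 28 (57.1%), against 936 of the 27025 promoters in the table (3.46%). It was present in 11 of 23 type I genes (47.8%) and in 5 of 5 GTPase genes. The gamma-activated site, searched as TTCNNNGAA, which reads alike on both strands, was present in 6 of 28 (21.4%) against 8.13% of all promoters, and in 1 gene, Bst2, the motifs overlapped. The following stretches are those of 4 genes from different functional groups that carry the first motif and had the smallest p-values in saline against chow, and capitals mark the matches to that first motif on either strand.
Ifit3: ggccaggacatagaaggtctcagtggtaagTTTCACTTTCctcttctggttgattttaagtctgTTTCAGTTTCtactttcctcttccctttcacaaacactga
Isg15: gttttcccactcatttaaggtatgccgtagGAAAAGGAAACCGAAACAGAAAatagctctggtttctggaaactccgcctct
Bst2: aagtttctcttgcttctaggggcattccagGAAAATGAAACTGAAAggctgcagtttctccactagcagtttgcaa
Gbp3: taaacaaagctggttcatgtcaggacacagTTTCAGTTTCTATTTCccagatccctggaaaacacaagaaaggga
The Ifit3 stretch is chr19:34583343-34583446 on the plus strand, with separate matches that begin at positions -156 and -122 from the start. The Isg15 stretch is chr4:156200845-156200926 on the minus strand, and its 3 overlapping matches begin at -78, -72 and -66. The Bst2 stretch is chr8:71537557-71537632 on the minus strand, with overlapping matches that begin at -130 and -124. The Gbp3 stretch is chr3:142559969-142560043 on the plus strand, with overlapping matches that begin at -45 and -39. A match is a description of the letters in this window and not evidence of a bound site.

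The levels of the set spanned a wide range in chow liver. Per kilobase of exon, Bst2, which encodes the virion tether tetherin, was highest at 66.5 CPM per kb, followed by the GTPase Iigp1 at 37.5 CPM per kb, and then by Parp9 at 9.32 CPM per kb. The lowest levels were those of Ifi44 (0.12 CPM per kb), Oas3 (0.17 CPM per kb), Mx1 (0.19 CPM per kb) and Ddx60 (0.26 CPM per kb). Bst2 and Iigp1 were also the highest in the saline livers (136 and 45.1 CPM per kb) and in the DT livers (126 and 21.3 CPM per kb). Exons of 13 of the 38 genes overlap those of another annotated gene, 8 on the opposite strand and 5 on the same strand, and the near-identical pairs Ifit3 and Ifit3b, Oas1a and Oas1g, and the GBP genes may share reads, so the division of reads within these pairs is uncertain.

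The first comparison, saline against chow, asks how the diet with alcohol and the saline injections together differed from chow. Of the 38 genes, 15 were higher in saline livers and none was lower by edgeR's quasi-likelihood test with Benjamini-Hochberg adjustment over all genes, at an adjusted p below 0.05, which is what "called" means throughout. Over all genes tested, 5.58% were called, 2.45% higher and 3.13% lower. The 15 were Ifit1, Ifit3, Ifit3b, Isg15, Oasl1, Cmpk2, Bst2, Ddx58, Dhx58, Irf7, Ifi44, Rtp4, Parp14, Trim30a and Gbp3. The fold change was positive for 35 of the 38, with a median log2 fold change of 0.88 against 0.00 over all genes tested, and for 27 genes every saline liver was above every chow liver, against 14.8% of all genes. The 3 genes with a negative value, Oas2 (-0.01), Mx2 (-0.28) and Stat2 (-0.20), were not called. Without chow replicate 1, 2 or 3 the number called fell to 6, 7 and 7, while the share of all genes called fell to 1.62%, 1.75% and 2.77%. The calls of Ifit3, Isg15, Bst2, Ddx58, Rtp4 and Gbp3 were kept in each of the 11 refits that left out 1 liver. Plasmacytoid dendritic cell markers, which mark a cell type that can produce type I interferon, had a summed level of 17.5 to 18.2 CPM in chow and 19.99 to 23.9 CPM in saline livers. All 6 had positive log2 fold changes (median 1.37), with 1 called higher and none at 0. Of the other cell type lists, 1 of 8 monocyte and macrophage and 1 of 6 stellate cell markers were called higher and 1 of 7 hepatocyte markers lower. Conventional dendritic cell markers had a median of 1.45, with 4 of 6 positive and none called. The part of these cell types in the result was not tested.

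The second comparison, DT against saline, asks what differed on the same diet when Kupffer cells carrying the receptor were targeted. Here the set did not move together. Of the 38 genes, 4 were called higher (Oas2, Oasl2, Mx2 and Stat2) and 6 lower (Irf9, Parp9, Parp14, Gbp3, Iigp1 and Irgm1). The 10 genes called are to be read beside the 21.9% of all genes called in this comparison, 14.3% higher and 7.62% lower, so the total was close to the background. Every DT liver was above every saline liver for 3 of the genes and below for 9, against 9.33% and 9.97% of all genes. The median log2 fold change was -0.15 against 0.02 over all genes tested. Without DT replicate 2, where 40.3% of all genes were called, the counts were 6 higher and 6 lower. The additional genes were Oas1a and Mx1. The number called fell to 6, 4 and 5 without saline replicate 1, 2 or 4 and to 4 without DT replicate 3, and Oas2, Parp9 and Irgm1 were called in each of the 11 refits that left out 1 liver.

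The third comparison, DT against chow, sets the depleted livers on the diet against chow livers. Of the 38 genes, 20 were called higher and none lower, against 14.8% of all genes called higher and 8.16% lower (23.0% in all). The median log2 fold change was 0.68 against -0.02 over all genes, and for 20 genes every DT liver was above every chow liver, against 14.8% of all genes. Without DT replicate 2, where 40.3% of all genes were called, the counts were 24 higher and 2 lower, Parp9 and Iigp1. Without chow replicate 1, 2 or 3 the number called fell to 10, 11 and 13, while the share of all genes called fell to 10.1%, 10.6% and 10.6%. Of the 15 genes called higher in saline against chow, 13 were also called higher in DT against chow, the exceptions being Ifit1 and Parp14. These comparisons share the chow livers, and saline against chow and DT against saline share the saline livers, so they are not independent of each other.

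**Figure D1:**
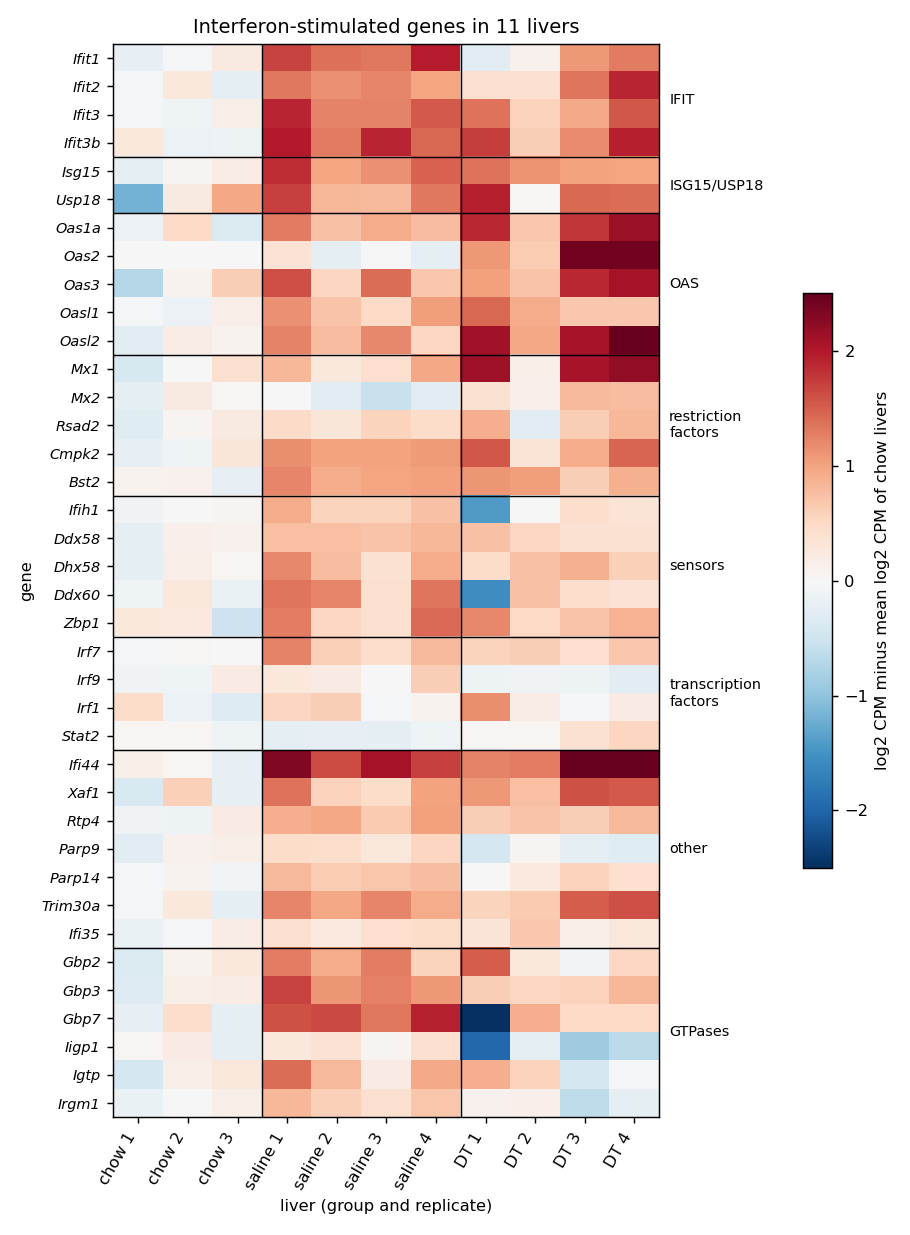
Heat map of the 38 genes (rows, by functional group) in the 11 livers (columns), as log2 CPM minus the mean log2 CPM of the chow livers, with colours saturating at the ends of the scale. Most rows are red in the saline and DT columns. The GTPase rows are mostly paler or blue in the DT columns, Gbp2 in DT 1 being an exception. The lowest values of the map are those of Gbp7, Iigp1 and Ddx60 in DT 1.

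**Figure D2:**
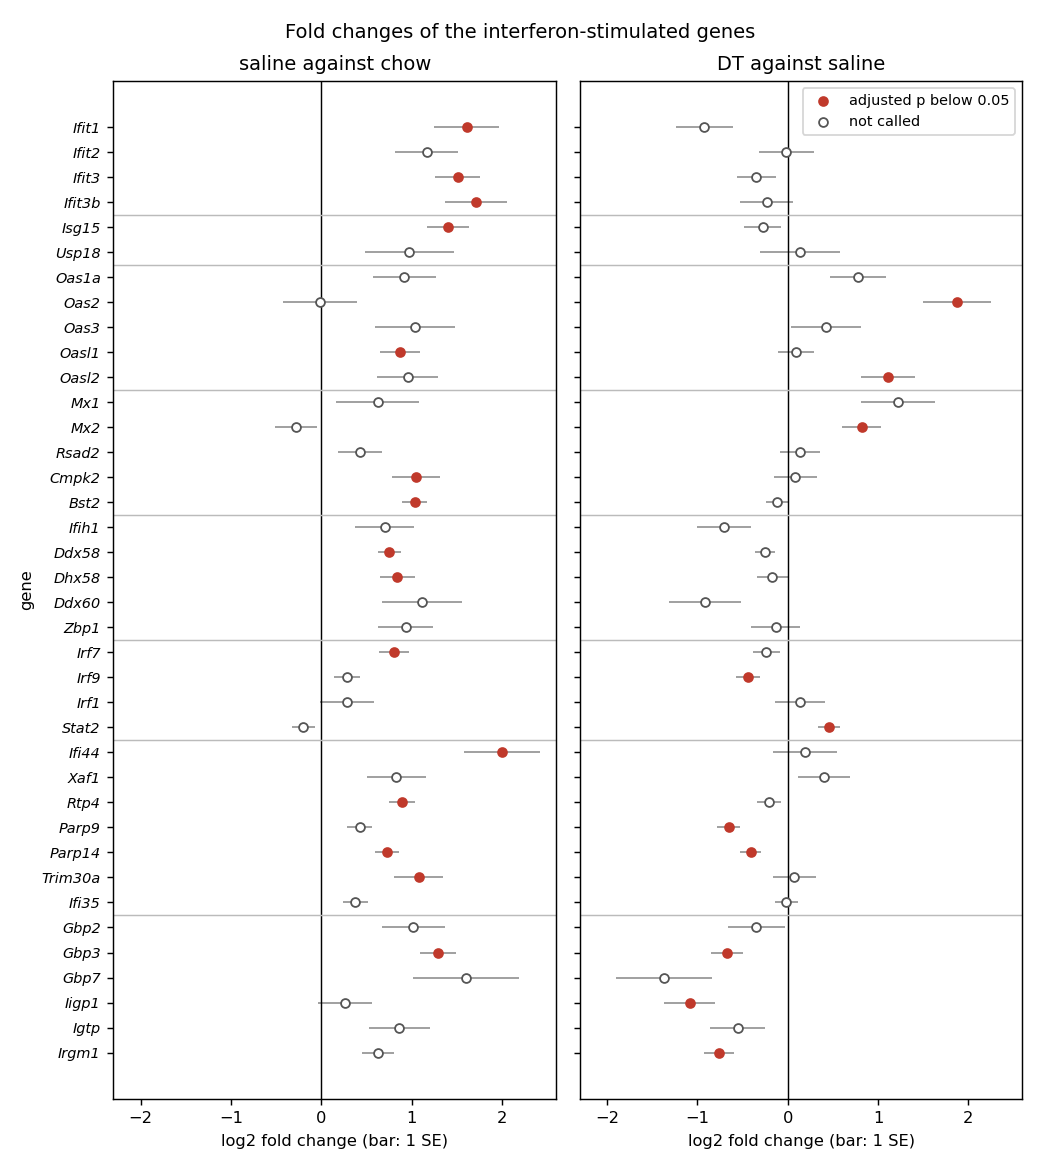
Log2 fold changes of the 38 genes in saline against chow (left) and DT against saline (right), with bars of 1 standard error and filled points for an adjusted p below 0.05. On the left 35 of 38 points lie above 0, and on the right 15 lie above and 23 below.

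The IFIT genes encode proteins that bind foreign RNA through its end structure. In saline against chow, 3 of the 4 were called higher, against 2.45% of all genes, and the fourth, Ifit2, had a log2 fold change of 1.17 (adjusted p = 0.0757). None of the 4 was called by edgeR in DT against saline, where 1, Ifit1, had an unadjusted p below 0.05. Ifit3 stood at 3.94, 3.79 and 4.54 CPM in chow, at 15.3, 9.72, 9.73 and 11.8 CPM in saline, and at 10.5, 6.14, 7.93 and 12.0 CPM in DT livers. Every saline and every DT liver was above every chow liver, and the DT livers overlapped the saline livers. The log2 fold change of Ifit3 was 1.51 (SE 0.25, adjusted p = 0.00618) in saline against chow and -0.35 (SE 0.22, adjusted p = 0.263) in DT against saline. Ifit3b, a near copy of Ifit3, stood at 1.24, 0.921 and 0.923 CPM in chow, at 4.11, 2.56, 3.91 and 2.83 CPM in saline, and at 3.45, 1.58, 2.36 and 4.04 CPM in DT livers. It followed the same order, with a log2 fold change of 1.71 (adjusted p = 0.0158) in saline against chow, a call that ended without any 1 of the chow livers (adjusted p 0.0537 to 0.0818).

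Ifit1 stood at 2.57, 2.91 and 3.46 CPM in chow, at 9.61, 7.77, 7.46 and 11.6 CPM in saline, and at 2.42, 3.20, 6.30 and 7.31 CPM in DT livers. All DT livers were below all saline livers, and DT replicates 1 and 2 lay within or below the chow range. The log2 fold change was 1.61 (SE 0.36, adjusted p = 0.0248) in saline against chow, and that call ended (adjusted p 0.0526 to 0.119) without any 1 of the chow livers or without saline replicate 1, 2 or 4. The Ifit1 value in DT against saline was -0.92 (SE 0.32), with an adjusted p of 0.0573 that missed the threshold and that was 0.0263 by DESeq2 and 0.0475 by limma-voom.

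ISG15 is a ubiquitin-like protein that is conjugated to other proteins, and USP18 removes it and also blocks the type I receptor. Isg15 was measured at 1.96, 2.41 and 2.63 CPM in chow, at 8.45, 4.59, 5.19 and 6.49 CPM in saline, and at 5.97, 5.12, 4.69 and 4.64 CPM in DT livers. The chow livers were below all others, and the DT livers lay inside the saline range. Isg15 was called higher against chow in saline livers (log2 fold change 1.40, SE 0.23, adjusted p = 0.00668) and in DT livers (1.13, SE 0.23, adjusted p = 0.00795). Usp18 was called in no comparison and varied among the chow livers from 1.60 to 7.20 CPM.

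**Figure D3:**
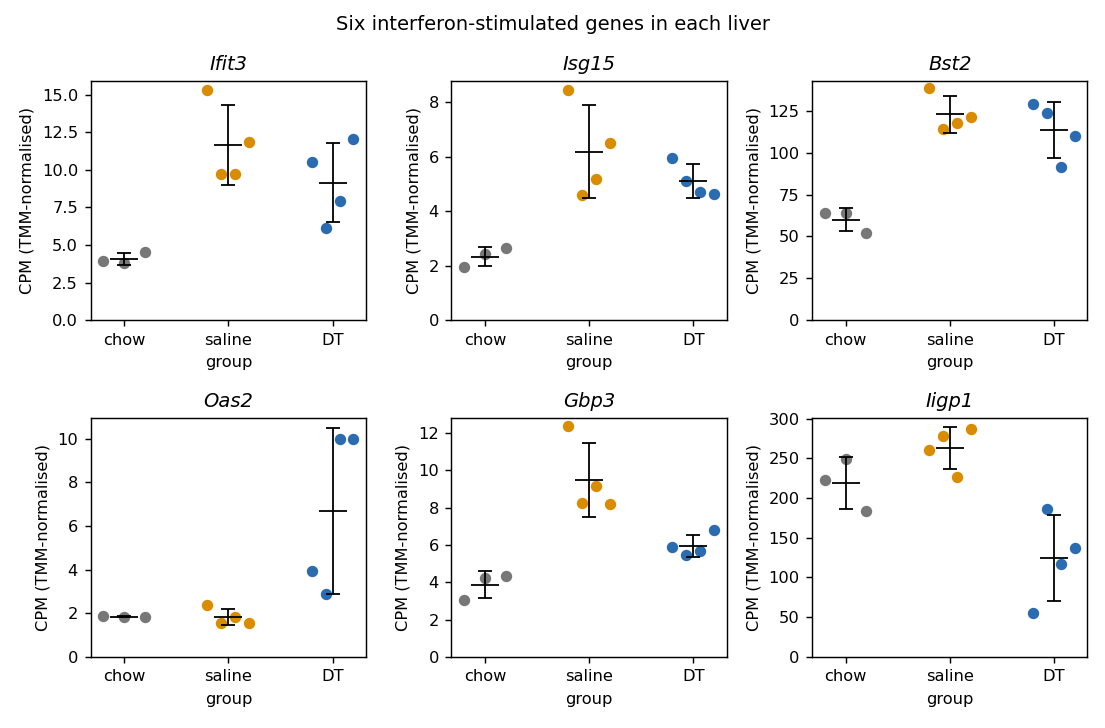
Level of Ifit3, Isg15, Bst2, Oas2, Gbp3 and Iigp1 in each liver (points, TMM-normalised CPM, axes from 0), with the group mean and standard deviation as a bar. Ifit3, Isg15 and Bst2 are above chow in both diet groups, Oas2 is highest in the DT livers, Gbp3 is highest in saline livers, and Iigp1 is lowest in DT livers.

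The OAS enzymes make an oligoadenylate that activates RNase L, and the OASL proteins are relatives that modulate RNA sensing. All 5 of the family were called higher in DT against chow (3 by limma-voom), against 14.8% of all genes, with a median log2 fold change of 1.70. Only Oasl1 was called in saline against chow, where 2.45% of all genes were called higher. Oas2 and Oasl2 were called higher in DT against saline (1 gene by limma-voom), against 14.3% of all genes, and there the median of the family was 0.78. That median was 0.44 after GC correction, where Oasl1 was negative, and 1.17 with scaling to total counts alone. Oasl1 was also negative when saline replicate 3, DT replicate 1, or both DT replicates 1 and 2 were left out. Oas2 showed no separation between chow (1.85, 1.84 and 1.82 CPM) and saline (2.36, 1.55, 1.83 and 1.55 CPM), and reached 3.92, 2.89, 9.98 and 9.99 CPM in DT livers. All DT livers were above all saline and all chow livers, with DT replicates 3 and 4 far above replicates 1 and 2. The log2 fold change of Oas2 in DT against saline was 1.88 (SE 0.38, adjusted p = 0.00891), a 3.68-fold difference, and it was 2.13 without DT replicate 2.

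Oasl2 stood at 2.70, 3.70 and 3.46 CPM in chow, at 7.78, 5.57, 7.53 and 4.66 CPM in saline, and at 14.1, 6.43, 13.6 and 21.0 CPM in DT livers. The groups rose in that order, although DT replicate 2 lay within the saline range. The difference was 0.96 on the log2 scale in saline against chow (SE 0.34, adjusted p = 0.129), 1.11 in DT against saline (SE 0.30, adjusted p = 0.0241) and 2.07 in DT against chow (SE 0.35, adjusted p = 0.00425). The Oasl2 call in DT against saline ended without saline replicate 2 or 4 or DT replicate 3 or 4 (adjusted p 0.0531 to 0.0734). Oasl1 stood at 7.70, 7.10 and 8.86 CPM in chow, at 17.4, 12.9, 11.2 and 16.2 CPM in saline, and at 21.4, 14.9, 12.5 and 12.6 CPM in DT livers. It was thus raised to a like level in both diet groups, by 0.87 (SE 0.22, adjusted p = 0.0399) and 0.96 (SE 0.22, adjusted p = 0.0115) on the log2 scale, and the first of these calls ended without any 1 of the chow livers or without saline replicate 1, 2 or 4 (adjusted p 0.0741 to 0.154). The Oasl1 call in DT against chow ended without chow replicate 2 (adjusted p = 0.0526) and after GC correction (0.56, adjusted p = 0.0635).

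Oas1a and Oas3 were called in DT against chow. Oas1a had a log2 fold change of 1.70 (SE 0.35, adjusted p = 0.0083) and Oas3 one of 1.46 (SE 0.44, adjusted p = 0.0357). In saline against chow Oas1a gave 0.92 (SE 0.35, adjusted p = 0.155), with every saline liver above every chow liver, and was called without DT replicate 2 (adjusted p = 0.0363), and Oas3 gave 1.04 (SE 0.44, adjusted p = 0.202). Oas1a in DT against saline gave 0.78 (adjusted p = 0.0885), and 1.01 (adjusted p = 0.00499) without DT replicate 2. The Oas3 call against chow ended without chow replicate 1 or 2 or DT replicate 3 or 4 (adjusted p 0.0776 to 0.128).

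The restriction factors act on virus particles or nucleotides: BST2 tethers budding particles, MX proteins trap nucleocapsids, RSAD2 makes a chain-terminating nucleotide and CMPK2 is a nucleotide kinase encoded beside it. Bst2 rose from 63.9, 64.1 and 52.2 CPM in chow to 139, 114, 118 and 121 CPM in saline, and stood at 129, 124, 91.5 and 110.0 CPM in DT livers. Both diet groups lay entirely above chow and overlapped each other. Its 2.05-fold rise in saline against chow had the smallest adjusted p of the set in that comparison (log2 fold change 1.03, SE 0.14, adjusted p = 0.00304), and the difference between DT and saline was -0.11 (SE 0.13, adjusted p = 0.547).

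Cmpk2 stood at 2.68, 2.86 and 3.78 CPM in chow, at 6.88, 6.22, 6.22 and 6.47 CPM in saline, and at 9.07, 3.91, 5.90 and 8.44 CPM in DT livers, with both diet groups above chow. Its log2 fold change in saline against chow was 1.05 (SE 0.27, adjusted p = 0.0429). That call was kept in only 3 of the 11 refits that left out 1 liver, those without DT replicate 1, 2 or 4, and the adjusted p reached 0.175 without chow replicate 1. Mx2 stood at 2.497, 3.46 and 3.02 CPM in chow, at 2.99, 2.44, 1.99 and 2.43 CPM in saline, and at 3.86, 3.24, 5.21 and 5.09 CPM in DT livers. The DT livers were all above the saline livers, and the saline livers overlapped chow. The Mx2 difference between DT and saline was 0.82 (SE 0.21, adjusted p = 0.0208), or 0.54 (adjusted p = 0.0667) after a correction for GC content, and its call ended without saline replicate 2, 3 or 4 or DT replicate 3 or 4 (adjusted p 0.0509 to 0.0625). Its neighbour Mx1 had 1.22 (SE 0.41, adjusted p = 0.0523), and 1.52 (adjusted p = 0.000852) without DT replicate 2, which at 0.770 CPM lay far below the other DT livers at 3.01 to 3.37 CPM.

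Of the 5 sensors of foreign nucleic acid, 2 were called higher in saline against chow, against 2.45% of all genes. All 5 had positive log2 fold changes there (0.70 to 1.12), with every saline liver above every chow liver, against 14.8% of all genes. None of the 5 was called in DT against saline by edgeR, DESeq2 or limma-voom, although 3 had an unadjusted p below 0.05. Ddx58, which encodes RIG-I, stood at 15.8, 20.4 and 20.3 CPM in chow, at 31.4, 31.6, 30.8 and 33.4 CPM in saline, and at 31.2, 27.0, 24.4 and 24.2 CPM in DT livers. All livers on the diet were above all chow livers. The log2 fold change of Ddx58 was 0.75 (SE 0.13, adjusted p = 0.00667) in saline against chow and 0.50 (SE 0.12, adjusted p = 0.0162) in DT against chow. The latter call ended without chow replicate 1 (adjusted p = 0.0765), after GC correction (adjusted p = 0.0877) and with only chow and DT livers in the fit (adjusted p = 0.068). Dhx58, which encodes LGP2, stood at 5.82, 7.65 and 7.03 CPM in chow, at 15.6, 11.6, 8.81 and 13.0 CPM in saline, and at 9.40, 11.4, 12.6 and 10.3 CPM in DT livers. Its log2 fold change of 0.84 in saline against chow (SE 0.19, adjusted p = 0.0283) lost its call without any 1 of the chow livers or without saline replicate 1, 2 or 4 (adjusted p 0.0645 to 0.14).

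Ifih1, which encodes MDA5, and Ddx60 were named after their values had been seen, because 1 DT liver was far below the others. Ifih1 stood at 22.2, 23.8 and 24.6 CPM in chow, at 45.1, 34.6, 34.6 and 39.2 CPM in saline, and at 8.83, 23.8, 31.98 and 29.7 CPM in DT livers. DT replicate 1 was the lowest of all 11 livers for Ifih1, and also for Ddx60, at 0.746 CPM against 2.93 to 3.79 CPM in the other DT livers. Neither gene was called in any comparison.

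The transcription factors of the set are IRF7, which amplifies type I interferon production, IRF9 and STAT2, which belong to ISGF3, and IRF1, a mediator of interferon-gamma responses. Irf7 stood at 23.0, 23.8 and 23.2 CPM in chow, at 55.0, 35.3, 31.5 and 41.3 CPM in saline, and at 34.3, 35.7, 31.2 and 37.4 CPM in DT livers. All livers on the diet were above all chow livers, by a log2 fold change of 0.80 (SE 0.17, adjusted p = 0.0179) in saline and 0.57 (SE 0.17, adjusted p = 0.0298) in DT livers. Both calls ended without any 1 of the chow livers, with adjusted p from 0.0671 to 0.0856 in saline, and the call in DT livers also ended without DT replicate 4 (adjusted p 0.0609 to 0.0951 over these refits) and after GC correction (log2 fold change 0.21).

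Stat2 and Irf9, the partners in ISGF3, went in opposite directions in DT against saline. Stat2 stood at 42.1, 42.2 and 37.5 CPM in chow, at 34.0, 35.3, 34.8 and 37.7 CPM in saline, and at 41.4, 42.0, 52.8 and 59.2 CPM in DT livers. Irf9 stood at 26.5, 26.3 and 32.5 CPM in chow, at 33.9, 32.8, 27.9 and 43.6 CPM in saline, and at 26.0, 26.6, 25.7 and 23.5 CPM in DT livers. For both genes the DT and saline livers did not overlap, with log2 fold changes of 0.46 for Stat2 (SE 0.12, adjusted p = 0.0211) and -0.44 for Irf9 (SE 0.13, adjusted p = 0.0368). The Stat2 value was 0.15 (adjusted p = 0.407) after GC correction and the Irf9 value -0.10 (adjusted p = 0.582) with scaling to total counts alone. The Stat2 call ended without saline replicate 1 or 2 or DT replicate 3 or 4 (adjusted p 0.0522 to 0.059), and the Irf9 call was kept only without chow replicate 3, saline replicate 3 or DT replicate 2 (adjusted p elsewhere 0.0503 to 0.108). Irf1 was called in no comparison.

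Of the 7 other inducible genes, 4 were called higher in saline against chow and 2 lower in DT against saline, against 2.45% and 7.62% of all genes. Rtp4, a chaperone of receptors that is strongly induced by interferon, stood at 5.07, 4.95 and 6.27 CPM in chow, at 10.1, 10.6, 8.54 and 11.1 CPM in saline, and at 8.31, 8.84, 8.31 and 9.47 CPM in DT livers. Both diet groups were above chow, by a log2 fold change of 0.89 (SE 0.15, adjusted p = 0.00614) in saline and 0.69 (SE 0.14, adjusted p = 0.0087) in DT livers. Ifi44 had the largest fold change of the set in saline against chow, 4.00-fold (log2 fold change 2.00, SE 0.42, adjusted p = 0.0191), from chow levels of 0.646 to 0.824 CPM. The Ifi44 call ended without any 1 of the chow livers (adjusted p 0.0783 to 0.084), while in DT against chow its log2 fold change of 2.19 (adjusted p = 0.00648) was called in each refit that left out 1 liver. Trim30a was called at 1.08 (adjusted p = 0.0407) in saline against chow, a call kept only in the 4 refits that left out a DT liver.

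Parp9 and Parp14 encode ADP-ribosyl transferases induced by interferon, and PARP9 works with its partner DTX3L. Parp14 stood at 23.97, 26.2 and 23.5 CPM in chow, at 43.0, 38.1, 39.5 and 42.1 CPM in saline, and at 24.2, 28.9, 36.5 and 32.8 CPM in DT livers. The saline livers were above all others. The log2 fold change of Parp14 was 0.73 in saline against chow (SE 0.13, adjusted p = 0.0102, and 0.0573 without chow replicate 1) and -0.41 in DT against saline (SE 0.12, adjusted p = 0.0333). The latter was -0.06 (adjusted p = 0.779) with scaling to total counts alone, and its call ended without saline replicate 1, 2 or 4 or DT replicate 1 (adjusted p 0.0574 to 0.0823). Parp9 stood at 37.7, 48.6 and 49.96 CPM in chow, at 61.7, 61.4, 55.2 and 65.8 CPM in saline, and at 33.6, 47.4, 37.8 and 36.4 CPM in DT livers. The DT livers were all below the saline livers and overlapped chow, and the log2 fold change in DT against saline was -0.65 (SE 0.13, adjusted p = 0.00858), a call that each refit without 1 liver kept. Dtx3l, which overlaps Parp9 on the opposite strand, is given with the pathway genes, and the strand setting of the counting is not given in the sources used here.

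Of the 6 GTPases, targets of interferon-gamma, 4 had group means in the order chow below DT below saline, as 15 of the 32 type I genes did, and the other two had their lowest mean in DT livers. In saline against chow all 6 had positive fold changes, with a median of 0.94, and 1, Gbp3, was called, against 2.45% of all genes called higher. All 6 had negative fold changes in DT against saline, with a median of -0.71, and 3 were called lower (Gbp3, Iigp1 and Irgm1), against 7.62% of all genes. The 6 values were negative under each of the 24 alternative settings run, including those without DT replicate 2. Some of these settings could hardly change a sign. The minimum fold change leaves the fold changes as they are, and leaving out a chow liver barely moved them (median -0.72 each time). With scaling to total counts alone, which shifts the median of all genes by 0.34, the median of the 6 values was -0.38. In DT against chow, Gbp3 alone was called, at 0.62 (SE 0.20, adjusted p = 0.0402), a call that only 4 of the 11 refits without 1 liver kept (adjusted p up to 0.153, without chow replicate 1).

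Gbp3 stood at 3.04, 4.24 and 4.34 CPM in chow, at 12.4, 8.25, 9.14 and 8.17 CPM in saline, and at 5.88, 5.47, 5.69 and 6.82 CPM in DT livers. The 3 groups did not overlap. The log2 fold change was 1.29 in saline against chow (SE 0.20, adjusted p = 0.00481) and -0.67 in DT against saline (SE 0.18, adjusted p = 0.0219), and the latter call ended without saline replicate 1 (adjusted p = 0.0672) or DT replicate 3 (adjusted p = 0.0597) and with scaling to total counts alone (-0.32, adjusted p = 0.244). Irgm1, a regulatory GTPase of the IRG family, stood at 28.7, 32.4 and 35.5 CPM in chow, at 56.9, 48.2, 42.6 and 51.6 CPM in saline, and at 34.5, 34.9, 20.7 and 27.6 CPM in DT livers. The saline livers were above all others, with a log2 fold change in DT against saline of -0.76 (SE 0.16, adjusted p = 0.0109), and in saline against chow of 0.63 (SE 0.18, adjusted p = 0.0628).

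Iigp1, an effector GTPase of the same family, was the most abundant of the 6. It stood at 223, 249 and 184 CPM in chow, at 261, 278, 226 and 286 CPM in saline, and at 55.6, 186, 117 and 137 CPM in DT livers. Saline and chow livers overlapped, and all DT livers were below all saline livers, by 2.12-fold (log2 fold change -1.08, SE 0.28, adjusted p = 0.0203). The Iigp1 call ended without saline replicate 2 or 4 or DT replicate 3 (adjusted p 0.054 to 0.0561). Against chow, Iigp1 in DT livers was at -0.82 (SE 0.30, adjusted p = 0.0673), and at -1.08 (adjusted p = 0.00953) without DT replicate 2. Of the others, Gbp7 had the most negative log2 fold change in DT against saline, -1.37 (SE 0.53, adjusted p = 0.0816), with DT replicate 1 at 0.850 CPM and the other DT livers at 8.74 to 11.6 CPM.

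**Figure D4:**
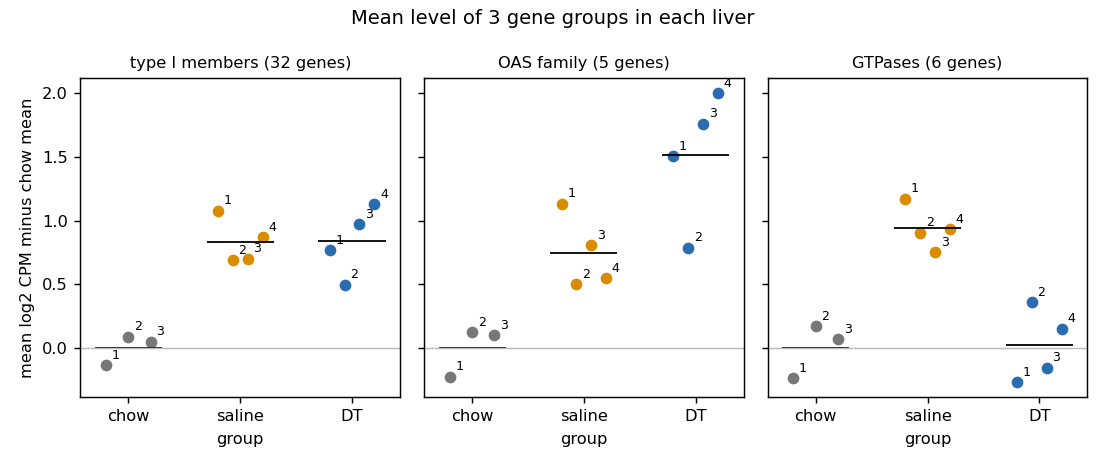
Mean log2 CPM of the 32 type I genes, the 5 OAS genes and the 6 GTPases in each liver (points, numbered by replicate) relative to the mean of the chow livers, with the group mean as a line. Type I genes lie between 0.69 and 1.08 in saline and between 0.50 and 1.13 in DT livers, whereas GTPases lie between 0.75 and 1.17 in saline and between -0.27 and 0.36 in DT livers.

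The mean of each group of genes was also taken liver by liver, on the log2 scale relative to chow. The type I mean was 1.08, 0.69, 0.70 and 0.87 in the saline livers and 0.77, 0.50, 0.97 and 1.13 in the DT livers, so these groups overlapped. The OAS mean was 1.13, 0.50, 0.80 and 0.55 in saline and 1.51, 0.79, 1.76 and 2.00 in DT livers. The GTPase mean was 1.17, 0.91, 0.75 and 0.93 in saline and -0.27, 0.36, -0.16 and 0.15 in DT livers, which did not overlap the saline livers and partly overlapped the chow livers (-0.24 to 0.17). In DT replicate 1, Gbp7 stood at -2.81 and Iigp1 at -1.96 on this scale. The median of the 6 GTPases was 0.36, 0.39, -0.24 and 0.23 in the DT livers and 1.33, 0.87, 0.83 and 0.81 in the saline livers. These means and medians describe the members and were not tested. DT replicate 2 had the lowest type I mean of its group and the highest GTPase mean.

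DT replicate 1 differed from the other DT livers along the GC content of the transcripts. Across 16991 genes its deviation correlated with GC content at Pearson's r of 0.352, against -0.234 to 0.086 in the other livers, a correlation across genes, which are not independent replicates. Among the 38 genes the difference of DT replicate 1 from the mean of the other DT livers was -3.44 on the log2 scale for Gbp7 (GC content 41.7%), -2.07 for Ddx60 (40.2%), -1.67 for Ifih1 (42.8%) and -1.37 for Iigp1 (39.3%), and it was 1.27 for Gbp2 and 1.05 for Irf1. A GC correction, added after these values were seen, gave 2 genes higher and 12 lower in DT against saline. Over all genes it called 27.1%, with 1762 higher and 2853 lower. All 6 GTPases were still negative (median -0.78). Relative to the median of all genes their median was -0.62, against -0.74 without the correction. The correction made Isg15 (-0.61, adjusted p = 0.044), Irf7 (-0.62, adjusted p = 0.0185) and Bst2 (-0.50, adjusted p = 0.0305) lower in DT against saline. This correction moved the median of all genes by -0.18.

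The interferon genes themselves were scarcely detected. Of 13 ligand genes, 9 had no count in any liver and none passed the filter for testing. Ifng alone exceeded 3 counts in a library, with 17 counts in all, spread over 4 libraries, and Ifnb1 had 2 counts in 1 library. Ligand expression was therefore not comparable between groups at this depth.

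Among 6 receptor genes none was called in saline against chow by edgeR, DESeq2 or limma-voom, and 1 had an unadjusted p below 0.05. In DT against saline 3 were called higher and 1 lower, against 14.3% and 7.62% of all genes. Ifnar2, a chain of the type I receptor, fell from 51.7, 46.1, 42.9 and 53.6 CPM in saline to 44.1, 38.6, 36.2 and 32.1 CPM in DT livers, with 65.2, 62.8 and 55.7 CPM in chow. DT and saline livers overlapped in DT replicate 1, and the log2 fold change was -0.36 (SE 0.12, adjusted p = 0.0453) against saline and -0.70 (SE 0.13, adjusted p = 0.00524) against chow. The Ifnar2 call against saline was kept in only 3 of the 11 refits without 1 liver (adjusted p up to 0.149, without DT replicate 4) and in 3 of the 13 other settings, being lost by DESeq2 (adjusted p = 0.0508) and limma-voom (adjusted p = 0.0515), and with scaling to total counts alone both Ifnar2 values lost their call (-0.03 and -0.24). Il10rb, a chain shared by the receptors of interleukin-10 and the lambda interferons, stood at 5.93, 5.63, 7.13 and 4.85 CPM in saline and at 12.7, 5.57, 11.3 and 12.0 CPM in DT livers. Its rise of 0.82 (SE 0.23, adjusted p = 0.0293) rested on DT replicates 1, 3 and 4, and the call ended without saline replicate 1, 2 or 4 or DT replicate 1, 3 or 4 (adjusted p 0.0602 to 0.0842).

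Ifnlr1, the specific chain of the lambda receptor, was at 1.36, 1.40 and 2.11 CPM in DT replicates 1, 3 and 4, and at 0.204 CPM or less in every other liver, including 0.00 CPM in DT replicate 2. Ifngr1, a chain of the interferon-gamma receptor, stood at 19.4, 19.5, 18.9 and 15.2 CPM in saline and at 37.99, 16.8, 29.0 and 37.1 CPM in DT livers. DT replicate 2 lay in the saline range for both genes. The Ifngr1 log2 fold change was 0.73 (SE 0.21, adjusted p = 0.0328), with the call kept only without chow replicate 1, 2 or 3 or DT replicate 2 (adjusted p elsewhere 0.0626 to 0.0996). The Ifnlr1 call (adjusted p = 0.0254) ended without saline replicate 2, 3 or 4 or DT replicate 3 or 4 (adjusted p 0.0585 to 0.0761).

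Of the other kinases and transcription factors of the pathway, Irf8 and Jak2 are given here. Irf8, a factor of macrophages and dendritic cells, was called in DT against chow (1.52, SE 0.37, adjusted p = 0.0145), with 25.2, 8.74, 22.8 and 25.3 CPM in DT livers and 5.65 to 8.39 CPM in chow, and that call ended without chow replicate 2 or 3 (adjusted p 0.0518 and 0.0638). Jak2 was called in no comparison.

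None of the 6 inhibitors of the pathway was called by edgeR in any of the 3 comparisons, DESeq2 and limma-voom also called none, and 1, 1 and 0 of them had an unadjusted p below 0.05. Socs1, a feedback inhibitor of JAK kinases, stayed below 1 CPM in every liver. Of 12 upstream sensors and adaptors, none was called in saline against chow by any of these tools (2 had an unadjusted p below 0.05). In DT against saline 1 of the 12 was called, against 21.9% of all genes, namely Sting1, the adaptor of cytosolic DNA sensing. It stood at 2.61, 2.36, 4.21 and 2.43 CPM in saline and at 8.997, 2.39, 6.08 and 7.18 CPM in DT livers, with DT replicate 2 again in the saline range (log2 fold change 1.09, SE 0.35, adjusted p = 0.0439). That Sting1 call was kept only without saline replicate 3 or DT replicate 2 (adjusted p elsewhere 0.0589 to 0.116). In DT against chow, Sting1 gave 1.81 (adjusted p = 0.00983) and Tlr9, an endosomal DNA sensor, 2.30 (adjusted p = 0.014), and the Tlr9 call ended without chow replicate 1 or 3 (adjusted p 0.064 and 0.0603).

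A further 54 interferon-inducible genes, listed apart from the set, gave 7 higher and 0 lower in saline against chow among the 53 tested, then 3 higher and 4 lower in DT against saline, and 18 higher and 0 lower in DT against chow. Over all genes tested the shares were 2.45% and 3.13%, 14.3% and 7.62%, and 14.8% and 8.16% in the same order, so the 7 called in DT against saline were below the background share of 21.9%. The median log2 fold changes of the list in these comparisons were 0.69, 0.00 and 0.62. Dtx3l, the ubiquitin ligase partner of PARP9, stood at 48.3, 51.9 and 48.7 CPM in chow, at 74.9, 76.5, 77.3 and 85.9 CPM in saline, and at 48.1, 52.0, 50.2 and 49.5 CPM in DT livers. The DT livers lay within or beside the chow range and all saline livers were above them, with log2 fold changes of 0.66 (SE 0.09, adjusted p = 0.00291) in saline against chow and -0.66 (SE 0.08, adjusted p = 0.00285) in DT against saline. Each refit without 1 liver kept both Dtx3l calls.

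Of the other GBP genes of that list, Gbp6 and Gbp10 were highest in saline livers. Gbp6 stood at 0.515, 0.962 and 1.22 CPM in chow, at 4.85, 2.87, 3.24 and 2.83 CPM in saline, and at 1.52, 2.04, 2.02 and 2.17 CPM in DT livers. The 3 groups did not overlap, with log2 fold changes of 1.93 (SE 0.33, adjusted p = 0.00752) and -0.83 (SE 0.28, adjusted p = 0.0547). Gbp10, named after its values were seen, stood at 0.438, 0.696 and 1.82 CPM in chow, at 9.33, 5.41, 5.54 and 5.77 CPM in saline, and at 1.88, 2.18, 0.974 and 2.01 CPM in DT livers, with a log2 fold change of -1.89 (SE 0.40, adjusted p = 0.0107) in DT against saline. Its rise of 2.72 in saline against chow (adjusted p = 0.00828) lost its call without chow replicate 2 (adjusted p = 0.0521). Ifitm1, whose protein blocks viral entry, was called in DT against chow (1.43, SE 0.24, adjusted p = 0.00411).

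Markers of other cells are given beside these differences, with 14.3% of all genes called higher and 7.62% lower in DT against saline. In DT against saline, 8 of 10 Kupffer cell markers were called lower, with a summed level of 412 to 561 CPM in saline and 230 to 321 CPM in DT livers. Of 6 endothelial cell markers, 2 were lower, with sums of 302 to 316 CPM against 232 to 254 CPM. Of 8 monocyte and macrophage markers, 3 were higher and 1 lower (174 to 281 CPM against 182 to 413 CPM). Of 6 conventional dendritic cell markers 2 were higher (9.70 to 13.4 CPM against 11.9 to 43.98 CPM), and of 10 T and NK cell markers, the cells that make most interferon-gamma, 1 was higher (5.001 to 8.60 CPM against 6.34 to 14.4 CPM). All 6 cholangiocyte markers were higher (19.9 to 45.3 CPM against 27.8 to 399 CPM), with DT replicate 2 the lowest DT liver. Of 6 stellate cell markers 4 were higher (187 to 361 CPM against 263 to 662 CPM). Of the 6 plasmacytoid dendritic cell markers 1 was higher, with sums of 9.37, 17.8, 31.98 and 33.3 CPM in DT livers. Of 4 neutrophil markers tested 1 was higher, and none of 5 B and plasma cell or 7 hepatocyte markers tested was called. Apart from the neutrophil marker Camp, at 0 in all saline livers, no marker of these lists was at 0 in every liver of a group. In whole liver, fewer cells of a type and less RNA per cell cannot be told apart, and the part of these cell types in the values of the interferon-stimulated genes was not tested.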

How the data were processed

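Whole-liver poly(A) RNA of 11 mice was analysed from the authors' deposited table of raw counts, with 1 column per library. FastQC, STAR, featureCounts and the build GRCm39 are named in the submitters' processing notes. Their versions, the gene annotation, the strand setting and whether both mates were counted are not given in the sources used here. Low counts were mostly even (86.1% to 89.2% of counts from 2 to 10), so halved counts were tried. The extraction text of the labels speaks of sorted CD45-positive cells, whereas the sample labels name whole liver tissue.

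Counts were scaled by TMM, filtered with filterByExpr by group and fitted with edgeR 4.0.16 (R 4.3.3) as 1 quasi-likelihood model over the 3 groups, leaving 8 residual degrees of freedom (biological coefficient of variation 30.1%). P-values were adjusted over 17038 of the 28842 genes with any count. The script was tested on simulated data. Standard errors were taken as the absolute log2 fold change divided by the square root of the F statistic. Levels per kilobase used exon lengths of GENCODE vM21. The labels number the replicates but do not state separate cages or days, so p-values measure only the spread between these samples. The alternatives were DESeq2 1.42.0, limma 3.58.1 (voom), other scalings and filters, a replicate block, halved counts, fits of 2 groups, a minimum fold change, leaving out libraries and, chosen after seeing the data, a GC correction.

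The members and gene lists were chosen with earlier results of these data known. In each functional group, up to 3 members called in saline against chow or DT against saline are described by liver, taken by smallest p, and of each pathway list up to 3 genes with the smallest p. Genes named outside this rule were named for their values. The result of 1 pathway gene is not reported here.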

Additional observations from a re-analysis of the deposited data

Results flagged for a closer look

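In groups of 4 livers, a liver was picked out where its gap to the nearest other liver took a larger share of the group's whole range than Dixon's 95% critical value. Of 112 groups examined, 7 were picked out, and chance alone picks about 1 in 20. Among the interferon-stimulated genes, Ddx60 was low in saline replicate 3, at 3.00 CPM with the other saline livers at 5.33 CPM or above. Mx1 was low in DT replicate 2, at 0.770 CPM with the next DT liver at 3.01 CPM. Irf1 was high in DT replicate 1, at 50.6 CPM with the next DT liver at 26.1 CPM. Among the pathway genes, Irf8 was low in DT replicate 2 (8.74 CPM, the next at 22.8 CPM), Sting1 was high in saline replicate 3 (4.21 CPM, the next at 2.61 CPM), Ifngr1 was low in saline replicate 4 (15.2 CPM, the next at 18.9 CPM) and Gbp10 was high in saline replicate 1 (9.33 CPM, the next at 5.77 CPM).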

How the results depend on the processing

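The number of the 38 genes called in saline against chow (15) became 9 by limma-voom, 26 when the third group was left out of the fit, 27 with DT replicates 1 and 2 left out together, 0 by edgeR's test against a minimum log2 fold change of 1 (28 had an unadjusted p below 0.05 in the ordinary test), and 6 to 21 over the 11 refits without 1 liver. In DT against saline (10) it became 19 with DT replicates 1 and 2 left out together, 0 with the minimum fold change (17 unadjusted) and 4 to 12 without 1 liver, and in DT against chow (20) it became 1 with the minimum fold change and 10 to 26 without 1 liver. DESeq2 called 21, 13 and 22. Over all genes, the 950, 3734 and 3919 called became 59, 72 and 496 with the minimum fold change, 3105, 2303 and 2089 without the third group, 3311, 7895 and 7827 without DT replicates 1 and 2, and 287 to 1924, 1786 to 6824 and 1786 to 6834 without 1 liver. DESeq2 called 1739 in saline against chow, and scaling to total counts alone called 5625 and 6535 in the DT comparisons. That scaling moved the median of all genes by 0.13, 0.34 and 0.46 and the share of calls that were higher from 43.9% to 67.0%, from 65.2% to 92.0% and from 64.5% to 94.8%; the upper quartile scaling gave 75.7% and 77.6% and the GC correction 38.2% and 38.6% in the DT comparisons. Limma-voom gave 52.8% and 50.2% there, and the members called in DT against saline were 7 higher and 3 lower with total counts (7 shared with the 10 above) and 2 higher and 12 lower with the GC correction (8 shared). Ifi35 in DT against saline went from -0.01 to 0.31 (adjusted p = 0.0438) with total counts alone, the all-gene shift of which is larger. Of 4028 refits of single genes, 3520 kept their side of the threshold, 339 lost a call, 168 gained one and that 1 turned its direction; 95 uncalled values changed sign. The cause of these changes was not tested.

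The replicate numbers were also used as a block. Correlations of the deviations of same-numbered livers ran from -0.164 to 0.182. Differently numbered livers were not compared in this way, so whether the numbers pair the livers was not tested. With the block 10, 6 and 11 of the 38 genes, and 559, 2847 and 2210 of all genes, were called in the 3 comparisons.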
